A study of Mus musculus with 15 samples.

Results

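The data describe what lisinopril, an inhibitor of angiotensin-converting enzyme, did to gene expression in the tibialis anterior, a fast muscle of the lower hind limb, of mice that carried a melanoma known to induce cachexia. The comparison used 8 of the series' 15 RNA sequencing libraries: 4 from melanoma-bearing mice without the drug (called untreated below, melanoma 1 to 4) and 4 from melanoma-bearing mice given lisinopril (called treated below, treated 1 to 4). Both groups were female C57BL/6J mice, labelled as aged 7 weeks, and both had received the tumour xenograft, with muscle taken 49 days after implantation per the series design text. As 49 days equal 7 weeks, the labelled age cannot be the age at sampling if implantation came after birth. The remaining 7 libraries, 4 mock-injected controls and 3 with lisinopril but no tumour, entered only where stated. The sources used here do not give the species and line of the tumour, nor the dose, route and duration of lisinopril. The labels call the samples biological replicates without saying more, so p-values measure the spread between these samples. Of 47643 gene symbols in the deposited table, 20398 had a value above 0 in the 8 libraries, and the 11545 with at least 1 TPM (an abundance corrected for transcript length and scaled to the same sum in every library) in at least 3 of the 8 were analysed. At the edge of that filter, Tspan11 was kept with a third-highest value of 1.00 TPM and Klhl36 was left out at 0.999973 TPM.

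Angiotensin-converting enzyme removes the last residues of angiotensin I to make angiotensin II, which raises blood pressure through its AT1 receptor, and it also degrades bradykinin. Angiotensin II is known to promote muscle protein breakdown through the ubiquitin ligases atrogin-1 (Fbxo32) and MuRF1 (Trim63), to activate NF-kB in vessel walls and to drive TGF-beta and collagen deposition. In cachexia, muscle loses mass while inflammatory cytokines and glucocorticoids act on it, and muscle itself makes acute phase proteins. These pathways set the order in which the genes are described.

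All 8 libraries were muscle by their defining genes: Acta1, the skeletal actin, lay between 13090 and 47553 TPM, and Ckm, muscle creatine kinase, between 8518 and 15752 TPM. The pigment cell gene Tyr was at 0 in all 8, and Pmel reached at most 0.147 TPM. Of the 9 listed pigment cell and melanoma genes, 1 passed the filter. Summed, the 9 stood at 5.93 to 13.2 TPM in untreated, 5.96 to 9.41 TPM in treated and 5.68 to 6.55 TPM in control muscle. As the tumour's species is not given, these mouse genes do not settle whether tumour RNA was present. Between 10881 and 11574 genes reached 1 TPM per library. TPM do not show how deeply a library was sequenced, so depth is unknown and no counting interval is given. Transcripts of the mitochondrial genome made up 39.3% ± 5.79 (SD, n = 4) of TPM in untreated and 38.9% ± 7.00 (SD, n = 4) in treated muscle, a difference of -0.434 percentage points (two-sided exact permutation test over 70 relabellings, p = 0.943). The library melanoma 2 stood apart: its mean correlation with its own group was 0.934, against at least 0.963 for each of the other 7. Of the variance, 42.0% lay on the first principal component, and none of the first 3 separated treated from untreated muscle. Pairs of libraries from different groups had a median r of 0.971, and pairs from the same group 0.968.

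No gene passed the threshold. With limma on log2(TPM + 1) over the 8 libraries, 0 of 11545 genes (0%) had a Benjamini-Hochberg adjusted p under 0.05, and the lowest adjusted p was 0.9999. At an unadjusted p under 0.05 there were 181 genes (1.57%), 40 higher (0.346%) and 141 lower (1.22%) in treated muscle. If no gene differed, a share of about 0.05 would be expected at that level, so these 181 genes are no excess. With 4 libraries per group, some genes also separate by chance. Both groups were fully separated, with no overlap of their 4 values, for 23 genes that were higher (0.199%) and 76 that were lower (0.658%). The split between higher and lower genes depended on scaling: genes higher in treated muscle were 23.2% of the separated ones as deposited, 37.1% after median-ratio rescaling, 50% after quantile normalization and 14.8% when TPM were recomputed without the mitochondrial genome. Over all genes 7570 (65.6%) had a log2 fold change below 0, with a median of -0.06. That median was -0.0076 after median-ratio rescaling, 0.00014 after quantile normalization and -0.13 to -0.0098 when 1 library was left out. Every fold change below is treated against untreated, as a difference of mean log2(TPM + 1), which understates the change of genes with few TPM.

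The intervals show what these 8 libraries could resolve. The median gene had a 95% interval reaching 0.45 log2 units (1.36-fold) to each side of its estimate, and for 10255 genes (88.8%) the whole interval lay between a log2 fold change of -1 and 1. These intervals are on log2(TPM + 1), which narrows them too for genes with few TPM, so there they do not bound the change in TPM itself. Differences past a log2 fold change of 1 in size were estimated for 53 genes, 21 higher and 32 lower. The genes described next had the smallest unadjusted p among those with separated groups and 5 TPM or more on average in the group that was higher, or belong to pathway lists, and none of them passed the test in the comparison as designed.

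**Figure D1:**
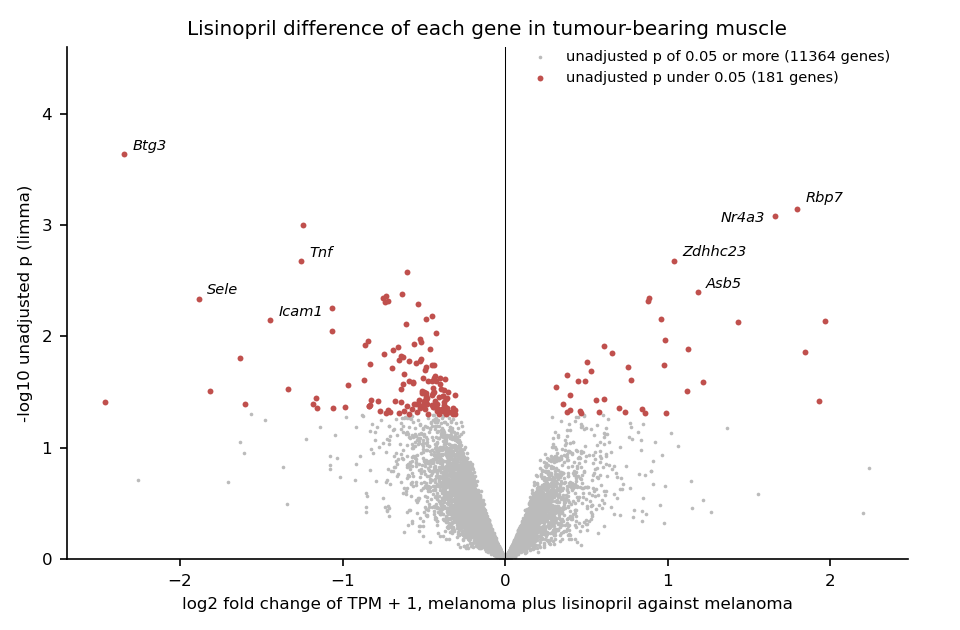
Each point is 1 of 11545 genes, with its log2 fold change of TPM + 1 (treated against untreated) on the x axis and -log10 of its unadjusted limma p on the y axis; red marks the 181 genes with an unadjusted p under 0.05. Btg3 on the left has the smallest p (0.000231), red points are more numerous on the left (141) than on the right (40), and no gene passed after adjustment.

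Btg3, which encodes a member of the antiproliferative BTG/TOB family (mm10 chr16:78332637-78377192, minus strand), had the smallest p of all genes, and its values were tied to those of a pseudogene. Btg3 stood at 6.39, 8.05, 3.56 and 7.14 TPM in melanoma 1 to 4 and at 2.72, 0, 0 and 0 TPM in treated 1 to 4, a log2 fold change of -2.35 ± 0.42 (SE; limma unadjusted p = 0.000231, adjusted p = 0.9999). Gm7334, a processed pseudogene (mm10 chr17:50698688-50699443, plus strand), showed the opposite: it was listed at 0, 0, 6.08 and 0 TPM in untreated and at 3.26, 7.83, 4.80 and 6.58 TPM in treated muscle. The groups did not overlap for Btg3, and 3 of 4 untreated libraries had 0 for the pseudogene where 3 of 4 treated libraries had 0 for the parent gene. In the GENCODE transcripts the 756 bases of Gm7334 were identical, with 0 differing bases, to bases 217 to 972 of the 1414-base transcript Btg3-201, which are its whole coding sequence of 756 bases. The first 120 of these, from the start codon, are printed to show that reads from them carry nothing that tells the copies apart, with the start codon in capitals.
Btg3-201, bases 217 to 336: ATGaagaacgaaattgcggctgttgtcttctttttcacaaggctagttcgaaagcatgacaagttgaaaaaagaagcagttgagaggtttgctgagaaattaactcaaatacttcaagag
Gm7334-201, bases 1 to 120: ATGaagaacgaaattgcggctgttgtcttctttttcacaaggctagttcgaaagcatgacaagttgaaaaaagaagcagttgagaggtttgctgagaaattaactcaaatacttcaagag
Summed, the pair stood at 6.39, 8.05, 9.64 and 7.14 TPM in untreated and at 5.97, 7.83, 4.80 and 6.58 TPM in treated muscle, and the groups overlapped. The log2 fold change of the sum was -0.27 (95% interval -0.68 to 0.13, limma unadjusted p = 0.161), a fit added after the values were seen. How reads shared by the copies were assigned is not given in the sources used here. The only calls made when 1 library was left out were this pair: Gm7334 without melanoma 3 (log2 fold change 2.67, limma adjusted p = 0.0128) and Btg3 without treated 1 (-2.82, limma adjusted p = 0.0112).

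Among genes with higher estimates in treated muscle, Nr4a3, which muscle is known to induce on exercise, and Asb5 lay above every tumour-free library as well. So did Zdhhc23 and Rbm24, described below. Nr4a3, an orphan nuclear receptor of the immediate early class (chr4:48045153-48086447), stood at 13, 15.6, 26.9 and 33.2 TPM in untreated and 117, 58.3, 69.1 and 43.9 TPM in treated muscle. All 4 treated values lay above all 4 untreated ones, and the 7 tumour-free libraries spanned 5.97 to 22.4 TPM, below every treated value. The log2 fold change of Nr4a3 was 1.66 ± 0.35 (95% interval 0.87 to 2.45, limma unadjusted p = 0.000831, adjusted p = 0.9999). Asb5, a substrate adaptor of ubiquitin ligases found mainly in muscle, stood at 216, 159.8, 190.2 and 154 TPM and 423, 784, 244 and 339.9 TPM in the same order, with the highest value in treated 2. Its log2 fold change was 1.19 ± 0.32 (limma unadjusted p = 0.00399), and the tumour-free libraries spanned 134 to 184 TPM, again below every treated value. Most of the immediate early and NR4A list lay on the other side of 0. Of its 20 kept members 14 had a log2 fold change below 0, where 65.6% of all genes did. The list median was -0.21 against -0.06 for all genes. Nr4a3 alone had an unadjusted p under 0.05, where 0.346% of all genes were higher at that level. Without treated 3 the list median was 0.09, with 9 members below 0.

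Rbp7, a cytosolic retinol-binding protein found in endothelium and fat, stood at 3.85, 4.23, 2.67 and 9.22 TPM in untreated and 24.2, 14.6, 30.2 and 10.4 TPM in treated muscle (chr4:149449687-149454978). The groups were separated, with treated 4 closest to melanoma 4, and the log2 fold change was 1.80 ± 0.37 (95% interval 0.96 to 2.63, limma unadjusted p = 0.000711, adjusted p = 0.9999). Tumour-free values of Rbp7, from 4.05 to 39.5 TPM, overlapped both groups. Zdhhc23, a protein palmitoyltransferase, stood at 3.24, 3.90, 2.05 and 2.81 TPM and 9.38, 10.4, 4.81 and 5.32 TPM, a log2 fold change of 1.04 ± 0.25 (limma unadjusted p = 0.00208). Gbp10, an interferon-inducible GTPase of a family with near-identical copies, so that its values are uncertain, had a log2 fold change of 1.85 and its lowest value, 0.221 TPM, in melanoma 2. Without melanoma 2 the Gbp10 value was 1.25.

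The other separated genes with higher estimates had smaller differences. Pccb, a subunit of mitochondrial propionyl-CoA carboxylase, was at 29.7 ± 7.03 TPM in untreated and 47.1 ± 8.49 TPM in treated muscle (mean ± SD, n = 4 each). Rbm24, a muscle splicing factor, was at 95.7 ± 9.88 and 132 ± 20.3 TPM. These were log2 fold changes of 0.66 for Pccb and 0.45 for Rbm24, and the remaining ones taken were the mitochondrial transhydrogenase Adhfe1 (0.40), the heat shock co-chaperone Dnajb5 (0.38), 9330159F19Rik (0.61) and Ndufb8 (0.29), a subunit of respiratory complex I.

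Among genes with lower estimates in treated muscle, Inha, the alpha subunit of inhibin, which antagonises activins, stood at 7.23, 7.53, 8.91 and 5.37 TPM in untreated and 3.11, 2.88, 4.41 and 5.37 TPM in treated muscle. Melanoma 4 and treated 4 nearly met at 5.37 TPM, and the log2 fold change was -0.75 ± 0.21 (limma unadjusted p = 0.00453). Myo5c, an unconventional myosin of vesicle transport, was at 15 ± 1.63 TPM in untreated and 8.93 ± 2.73 TPM in treated muscle (mean ± SD, n = 4 each), with tumour-free muscle at 5.01 to 10 TPM. Crispld2, a secreted protein responsive to glucocorticoids, was at 13.3 ± 1.49 and 9.81 ± 1.03 TPM, and its tumour-free values of 4.04 to 7.11 TPM lay below all 8. These were log2 fold changes of -0.72 for Myo5c and -0.40 for Crispld2. The other separated genes taken were Cpxm1 (-1.06), 2610301B20Rik (-0.69), the retinol-oxidising alcohol dehydrogenase Adh1 (-0.65), the actin-bundling Fscn1 (-0.56), Nme6 (-0.55), the endosomal Leprot (-0.45), the endocytic adaptor partner Necap2 (-0.43) and Nfkbia (-0.73).

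NF-kB is a family of transcription factors held in the cytoplasm by inhibitor proteins such as the product of Nfkbia. Once freed it switches on cytokines, adhesion molecules and its own inhibitors, Nfkbia among them. Its targets made up the list with the most members past the unadjusted level, so the promoters of 3 of them that hold a kappa-B motif are shown. Each is the 250 bases before the transcription start in RefSeq (GRCm38.p6, the assembly of mm10), read on the gene's strand, with matches in capitals, in either orientation, to 2 spellings of the motif: GGGAN followed directly by TTTCC, or GGAANTTCC. The letters of both motifs can overlap in 1 site.
Nfkbia, chr12:55492648-55492897, minus strand: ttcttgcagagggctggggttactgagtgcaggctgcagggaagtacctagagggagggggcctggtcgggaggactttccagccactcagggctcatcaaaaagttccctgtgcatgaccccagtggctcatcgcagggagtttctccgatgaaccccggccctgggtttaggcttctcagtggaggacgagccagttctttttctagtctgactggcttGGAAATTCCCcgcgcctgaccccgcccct
Cxcl1, chr5:90890995-90891244, plus strand: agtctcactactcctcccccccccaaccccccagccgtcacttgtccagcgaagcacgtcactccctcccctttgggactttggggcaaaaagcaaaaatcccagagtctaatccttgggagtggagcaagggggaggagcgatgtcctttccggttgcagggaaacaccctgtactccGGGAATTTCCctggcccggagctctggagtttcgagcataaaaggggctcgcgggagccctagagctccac
Icam1, chr9:21015690-21015939, plus strand: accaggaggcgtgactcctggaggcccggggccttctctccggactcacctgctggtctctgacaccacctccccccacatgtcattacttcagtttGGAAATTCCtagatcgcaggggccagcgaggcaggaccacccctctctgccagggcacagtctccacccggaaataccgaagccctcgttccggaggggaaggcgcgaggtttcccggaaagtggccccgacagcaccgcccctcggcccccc
The motifs began 29, 71 and 153 bases before the start. The first motif was present in 0.356% and the second in 0.813% of all 32851 RefSeq windows of this length. Of the list's 20 kept members, 15 matched a RefSeq window by symbol, and 5 of these held either motif. A match describes the letters only, and binding was not measured.

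NF-kB targets were lower in treated muscle in most members, without any passing the test. Of 22 genes listed, 20 were kept, 0 were called, 18 had a log2 fold change below 0 (65.6% of all genes did), and the list median was -0.67 against -0.06 for all genes. The unadjusted p was under 0.05 for 7 of the 20, all lower, where 1.22% of all genes were lower at that level. The list was drawn up with earlier results of these data known, so the count is a description. It ranged from 4 to 13 members over the alternative analyses. It came to 6 without melanoma 2, and to 4 without melanoma 3, melanoma 4, treated 1 or treated 3 and under both other filters on low values.

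Nfkbia, the inhibitor shown first, stood at 111, 138, 127 and 97.6 TPM in untreated and 67.4, 82.8, 52.5 and 83.1 TPM in treated muscle. Every treated value lay below every untreated one, and the tumour-free libraries, at 64.1 to 145 TPM, overlapped both groups. The difference was -0.73 ± 0.20 on the log2 scale (95% interval -1.17 to -0.29, limma unadjusted p = 0.00429, adjusted p = 0.9999). Tnf, the cytokine that both activates and is made by NF-kB signalling, stood at 1.99, 3.45, 6.03 and 2.33 TPM and 0.257, 1.73, 0.538 and 0.819 TPM. Its groups were also separated, at low levels, with a log2 fold change of -1.25 ± 0.31 (limma unadjusted p = 0.0021) and tumour-free values of 0.976 to 6.21 TPM.

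The adhesion molecules that capture leukocytes on activated endothelium had estimates of similar size but overlapping values. Icam1 stood at 16.4, 21.7, 54.7 and 36.1 TPM in untreated and 8.18, 16.9, 4.76 and 14.6 TPM in treated muscle, where only treated 2 (16.9 TPM) reached above melanoma 1 (16.4 TPM). Its log2 fold change was -1.45 ± 0.43 (limma unadjusted p = 0.00712). Vcam1, which also marks satellite cells, stood at 2.68, 3.40, 8.60 and 5.75 TPM and 0.807, 3.16, 1.59 and 1.80 TPM, with the same 2 libraries crossing by rank (log2 fold change -1.07 ± 0.33, limma unadjusted p = 0.00891). Melanoma 3 was the highest and treated 1 or treated 3 the lowest for both genes. Tumour-free values, 5.64 to 31.6 TPM for Icam1 and 2.77 to 6.72 TPM for Vcam1, overlapped both groups. The endothelial selectins Sele and Selp, named after their values were seen, were also lower in estimate. Sele stood at 6.83, 11.1, 18.7 and 16.2 TPM and 1.53, 7.16, 0.404 and 4.97 TPM (log2 fold change -1.88, limma unadjusted p = 0.00457), where only treated 2 exceeded the lowest untreated value. Selp stood at 6.49, 14.6, 32.5 and 23.3 TPM and 2.77, 9.99, 1.49 and 9.09 TPM (log2 fold change -1.63, limma unadjusted p = 0.0156). Treated 2 and treated 4 exceeded its lowest untreated value. Tumour-free values of Sele (1.76 to 17.7 TPM) and Selp (2.18 to 8.98 TPM) also overlapped both groups.

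The chemokine Cxcl1, which draws neutrophils, stood at 48.3, 97.1, 223 and 123 TPM in untreated and 21, 67.6, 6.30 and 78.4 TPM in treated muscle. Treated 2 and treated 4 lay within the untreated range while treated 3 was the lowest of all 8. The log2 fold change was -1.81 ± 0.73 (limma unadjusted p = 0.0312). Tumour-free values of Cxcl1, from 21.0 to 90.0 TPM, overlapped both groups. The feedback genes Tnfaip3 (A20) and Birc3, both named after their values were seen, had log2 fold changes of -1.16 (limma unadjusted p = 0.0354) and -0.62 (limma unadjusted p = 0.047). Il6, the cytokine upstream of STAT3, stood at 3.31, 9.68, 25.5 and 14.4 TPM and 1.39, 4.48, 0.450 and 10.8 TPM with strong overlap (log2 fold change -1.60 ± 0.68, limma unadjusted p = 0.0405). The subunits Nfkb1, Rela and Relb themselves had log2 fold changes of -0.23, -0.13 and -0.48.

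**Figure D2:**
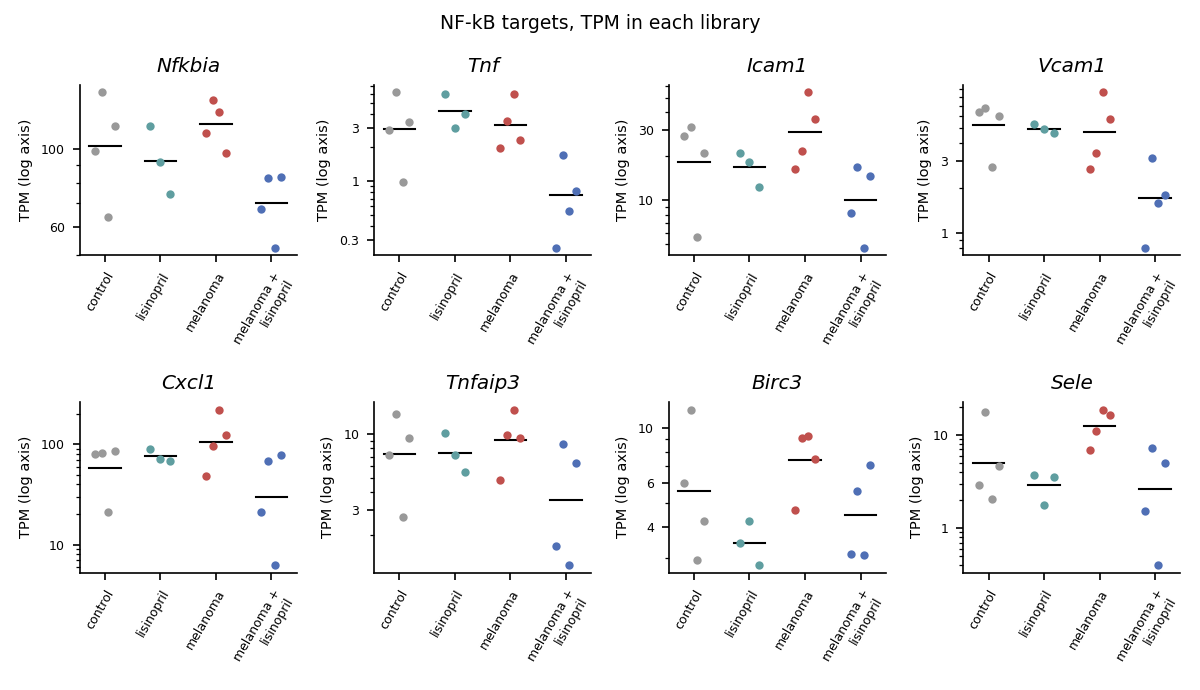
TPM of 8 NF-kB target genes on log axes in each library of the 4 groups (control n = 4, lisinopril n = 3, melanoma n = 4, melanoma plus lisinopril n = 4), with a bar at the mean of log2(TPM + 1) turned back to TPM. Nfkbia and Tnf do not overlap between melanoma and melanoma plus lisinopril, the other 6 genes do, and tumour-free values of Nfkbia (64.1 to 145 TPM) overlap both tumour-bearing groups.

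Neutrophil and macrophage markers also had mostly lower estimates in treated muscle, and their part in the result was not tested. All 8 kept neutrophil markers of 11 had a log2 fold change below 0, where 65.6% of all genes did. Their median was -0.50 against -0.06 for all genes, with 0 called. Without treated 4 the median was -0.23, and 6 of 8 were below 0 there, without melanoma 2 and with sample quality weights. Their summed level ranged from 109 to 367 TPM in untreated and from 34.8 to 193 TPM in treated muscle. S100a8, the neutrophil calprotectin subunit, was highest in melanoma 2 at 162 TPM and lowest in treated 4 at 9.61 TPM (log2 fold change -1.14, limma unadjusted p = 0.0657). Of 12 kept macrophage markers 10 were below 0, with a median of -0.33 and summed levels of 97.9 to 197 TPM against 73.2 to 162 TPM. Csf1r, the macrophage growth factor receptor, had a log2 fold change of -0.60 (limma unadjusted p = 0.0542). Summed endothelial markers were 561 to 740 TPM in untreated and 552 to 882 TPM in treated muscle, with a list median of -0.16. Summed T and B cell markers were 3.29 to 12.4 TPM in untreated and 3.01 to 21.8 TPM in treated muscle, and the 2 kept members were both above 0, with a median of 0.14. Among the members that were not kept, Cd3e reached at most 0.249 TPM and Cd79a at most 0.560 TPM. In bulk tissue, fewer cells of a type and less RNA per cell cannot be told apart.

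The pathway that lisinopril blocks was measured at modest levels and no member passed the test. Of 23 renin-angiotensin and bradykinin genes 14 were kept, 12 of them below 0, where 65.6% of all genes were. The list median was -0.23 (-0.12 without melanoma 2), against -0.06 for all genes (-0.0098 without melanoma 2). Ace, the target of the drug, stood at 50.6, 75.5, 37.1 and 26 TPM in untreated and 43.1, 38.2, 23.2 and 34.1 TPM in treated muscle, and the groups overlapped. Its log2 fold change was -0.37 (95% interval -1.07 to 0.33, limma unadjusted p = 0.271), and tumour-free muscle held 5.31 to 31.1 TPM. Messenger RNA of Ace does not report the activity of the enzyme, which is what the drug inhibits. Agtr1a, the AT1 receptor of angiotensin II, stood at 2.44, 3.98, 3.36 and 1.48 TPM and 1.55, 2.40, 1.28 and 1.11 TPM, a log2 fold change of -0.54 (95% interval -1.07 to -0.01, limma unadjusted p = 0.0475). It was the single member with an unadjusted p under 0.05, where 1.22% of all genes were lower at that level, and its interval nearly reached 0. After median-ratio rescaling or quantile normalization no member was at that level. Without melanoma 2 the Agtr1a value was -0.39 (limma unadjusted p = 0.124). Agt, the precursor angiotensinogen, had a log2 fold change of 0.11 (95% interval -0.76 to 0.97), and the peptidases Mme and Prcp had -0.32 and -0.24. The receptor Mas1 and the bradykinin receptor Bdkrb2 stayed below the filter, at no more than 0.0641 and 2.12 TPM.

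Acute phase and complement genes, which inflamed muscle makes, had estimates mostly below 0, without a call. For comparison, 65.6% of all genes lay below 0, with a median of -0.06. For the acute phase list 16 of 19 kept genes were below 0 with a median of -0.37, and 3 had an unadjusted p under 0.05, against 1.22% of all genes lower at that level: Cd14, the endotoxin co-receptor (-0.96), Lbp, its carrier (-0.65), and Cp, ceruloplasmin (-0.42). Over the alternatives that count ranged from 0 to 6, with 1 without melanoma 2, after median-ratio rescaling or quantile normalization, with no filter or with the replicate number as a block, and 0 over all 15 libraries and without melanoma 3, treated 1 or treated 3. Lbp stood at 18.1, 27.4, 30.7 and 14.4 TPM in untreated and 13.6, 20, 8.52 and 13.8 TPM in treated muscle, all above the tumour-free range of 1.28 to 6.50 TPM. Serpina3n, a protease inhibitor, stood at 154, 887, 64.9 and 46.6 TPM and 112, 88.7, 15.3 and 465 TPM. Melanoma 2 and treated 4 were the high libraries of their groups, and the log2 fold change of -0.62 had a 95% interval of -3.0 to 1.76. Lcn2, lipocalin-2, had -0.46 with an interval of -3.04 to 2.11. Without melanoma 2 both estimates turned positive, to 0.25 for Serpina3n and 0.33 for Lcn2.

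Complement had 18 of 21 kept genes below 0, where 65.6% of all genes were. Its median was -0.40, and 0 genes had an unadjusted p under 0.05. That count was 11, all lower, without treated 2 and with sample quality weights, and 3 without melanoma 2 or melanoma 4, with 0 called throughout. C3, the central component, stood at 115, 70.6, 113 and 70.9 TPM in untreated and 70.9, 129, 44.6 and 58.2 TPM in treated muscle, with treated 2 the highest of all 8. Its log2 fold change was -0.36 (95% interval -1.07 to 0.36), and tumour-free muscle held 5.48 to 20 TPM, below all 8 tumour-bearing libraries. The terminal component C7 had -0.59 and the C1 inhibitor Serping1 had -0.40. The interleukin-6 and STAT3 list lay near all genes, with 13 of 21 below 0 and a median of -0.05 against -0.06. That list median was 0.01 after quantile normalization and 0.03 without treated 3. Stat3 had 0.22 (95% interval -0.28 to 0.72). Among interferon-stimulated genes 21 of 29 were below 0, where 65.6% of all genes were. Their median was -0.07 (0.00089 after quantile normalization and 0.07 without treated 1). Irf1 (-0.69, limma unadjusted p = 0.0191) was the single one with an unadjusted p under 0.05, where 1.22% of all genes were lower. The acute phase median lay between -0.49 and -0.14 and the complement median between -0.60 and -0.24 when 1 library was left out.

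Genes of muscle wasting lay on both sides of 0, and their values spread widely within each group. Of 34 atrophy genes, all kept, 18 were below and 16 above 0, where 65.6% of all genes were below. Their median was -0.02 (0.04 after median-ratio rescaling), with 0 at an unadjusted p under 0.05. Trim63 stood at 386, 1974, 368 and 401 TPM in untreated and 1044, 228, 359.5 and 1563 TPM in treated muscle. Melanoma 2, treated 4 and treated 1 were high and the other 5 lay between 228 and 401 TPM, so the log2 fold change of 0.06 had a 95% interval of -1.48 to 1.60. Fbxo32 stood at 204, 986, 201 and 180.3 TPM and 357, 66.2, 149.9 and 777 TPM with the same 3 libraries highest and treated 2 lowest (-0.35, 95% interval -2.03 to 1.34). Tumour-free muscle held 167 to 341 TPM of Trim63 and 79.5 to 229.9 TPM of Fbxo32. These intervals include a 2-fold difference in either direction, so an effect of that size on either ligase could not be resolved in these 8 libraries.

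The same 3 libraries were the highest of the 8 for the translation repressor Eif4ebp1, at 949.8, 608 and 407 TPM in melanoma 2, treated 4 and treated 1. The glucocorticoid-induced chaperone partner Fkbp5 stood at 98.2, 218, 37.4 and 38.1 TPM in untreated and 100.4, 47.6, 38.4 and 143 TPM in treated muscle (log2 fold change -0.06, 95% interval -1.38 to 1.26). Foxo1, the factor upstream of both ligases, had 0.19, Mstn, myostatin, had 0.28, and Igf1, the main anabolic growth factor, had -0.45. Metallothioneins Mt1 and Mt2 had 0.04 and 0.06, and the growth arrest gene Cdkn1a had 0.10. Glucocorticoid-responsive genes had 14 of 23 below 0 and a median of -0.15. The 2 with an unadjusted p under 0.05 were Nfkbia, also counted among the NF-kB targets, and Angptl4 (-0.50). Both were lower, where 1.22% of all genes were lower at that level. Proteasome subunits had 24 of 31 below 0 with a median of -0.12, and autophagy and lysosome genes 23 of 32 with a median of -0.11, both with 0 genes at that level. Of all genes 65.6% lay below 0. The atrophy median moved between -0.32 and 0.28 when 1 library was left out, and was 0.28 without melanoma 2, where the medians of the other 3 lists also turned, to 0.13 for the proteasome, 0.06 for autophagy and 0.23 for glucocorticoid-responsive genes.

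**Figure D3:**
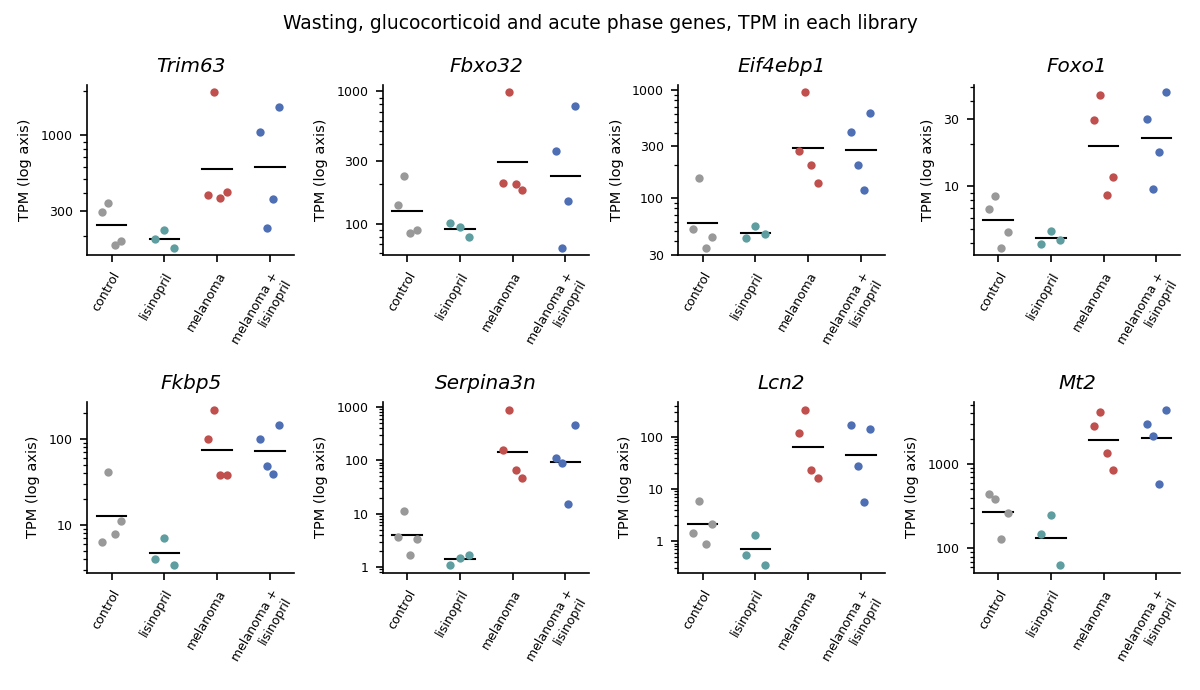
TPM of 8 wasting, glucocorticoid and acute phase genes on log axes in each library of the 4 groups (n = 4, 3, 4 and 4 from left to right), with a bar at the mean of log2(TPM + 1) turned back to TPM. Melanoma and melanoma plus lisinopril overlap for all 8 genes, and the spread within each, as from 368 to 1974 TPM for Trim63 in untreated muscle, is larger than the distance between the bars.

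Fibrosis genes, a known arm of angiotensin II signalling, were mostly below 0 with wide intervals. Collagens and cross-linking enzymes had 20 of 26 below 0 (median -0.12), matrix proteoglycans 19 of 25 (median -0.14) and TGF-beta regulators 11 of 16 (median -0.13). Of all genes 65.6% were below 0. The sign of 2 of the list medians rested on single libraries: without melanoma 3 the median was 0.09 for collagens and 0.02 for matrix proteoglycans, and without treated 4 it was 0.04 for collagens. After median-ratio rescaling the counts below 0 were 17 of 26, 16 of 25 and 9 of 16 in the same order. The 65.6% belongs to the values as deposited and is no yardstick for these rescaled counts. The rescaled medians were -0.08, -0.08 and -0.07, against -0.0076 for all genes after the same rescaling. Col1a1, fibrillar collagen, stood at 41.8, 4.37, 74.6 and 22.5 TPM in untreated and 14.4, 24.9, 45.1 and 6.29 TPM in treated muscle. Melanoma 2 and treated 4 were the lowest of the 8, and the log2 fold change of -0.40 had a 95% interval of -2.14 to 1.34; without melanoma 2 it was -1.15 (limma unadjusted p = 0.0757). Col3a1 had -0.51, and -1.32 without melanoma 2. Without melanoma 3 both turned positive, to 0.12 for Col1a1 and 0.16 for Col3a1, and likewise without treated 4, to 0.06 and 0.16. Tgfb1, the cytokine itself, had -0.21 (95% interval -0.57 to 0.14). The members with an unadjusted p under 0.05 were Timp1, an inhibitor of matrix proteases that NF-kB and interleukin-6 also induce (-0.83), and Dcn, the proteoglycan decorin (-0.38). That was 0 of 26 for collagens, 1 of 25 for matrix proteoglycans and 1 of 16 for TGF-beta regulators. At that level 1.22% of all genes were lower. Fibroblast markers, of which Dcn is also 1, were below 0 in 10 of 12, with a median of -0.22 (-0.01 without melanoma 3, with 6 of 12 below 0) and summed levels of 1031 to 1553 TPM in untreated and 842 to 1126 TPM in treated muscle.

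Contractile and metabolic genes had estimates mostly above 0 with all 8 libraries, again without a call, but several of the list medians turned when melanoma 2 was left out. Fast sarcomere isoforms had 13 of 15 above 0 (median 0.22) and slow isoforms 12 of 14 (median 0.21). Of all genes 65.6% lay below 0, with a median of -0.06. Myh4, the fastest myosin heavy chain, had 0.37 (95% interval -0.24 to 0.97) and Myh2 had 0.74 (95% interval -0.31 to 1.79). Myl3, a slow light chain, stood at 2.27, 0.813, 8.46 and 25.2 TPM in untreated and 6.56, 25.5, 29.1 and 51.1 TPM in treated muscle, a log2 fold change of 1.94 (limma unadjusted p = 0.0379). The groups overlapped through melanoma 4 and treated 1. The slow chain Myl2 reached 99.5 TPM in treated 4 and 16.3 TPM in melanoma 4 while 5 of the other 6 libraries were under 1 TPM. The fast median lay between -0.06 (without melanoma 2) and 0.42, and the slow median between -0.25 (without treated 4) and 0.76, when 1 library was left out. With sample quality weights both turned negative, to -0.06 and -0.02.

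Ppargc1a, the coactivator that drives mitochondrial biogenesis, stood at 13, 34, 13 and 13.9 TPM in untreated and 59.7, 50.1, 21.6 and 13.8 TPM in treated muscle. Treated 1 and treated 2 were high, treated 4 lay among the untreated values, and the log2 fold change was 0.83 (95% interval -0.21 to 1.88, limma unadjusted p = 0.105). Its list had 12 of 21 above 0 and a median of 0.03. Among all genes 65.6% lay below 0, with a median of -0.06. Nuclear genes of respiratory complex I had 28 of 37 above 0 (median 0.06), and those of complexes II to V 28 of 39 (median 0.06). Without melanoma 2 these medians were 0.01 and -0.0086, and with sample quality weights the second was -0.0035. Fatty acid oxidation and PPAR genes had 22 of 31 above 0 with a median of 0.14 that stayed between 0.13 and 0.19 when 1 library was left out. Ppara, the receptor that drives them, stood at 3.35, 6.69, 3.00 and 4.49 TPM and 9.09, 8.50, 10.3 and 4.54 TPM (log2 fold change 0.76, limma unadjusted p = 0.019); only treated 4 lay within the untreated range. The peroxisomal thiolase Acaa1a had 0.61, and the lipase inhibitor Angptl4, at no more than 1.81 TPM, had -0.50. At an unadjusted p under 0.05, 2 of the 31 were higher and 1 lower, against 0.346% and 1.22% of all genes. The fuel switch kinase Pdk4 had -0.01 (95% interval -1.31 to 1.28).

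Antioxidant genes under NRF2, which senses oxidants and electrophiles, had 21 of 25 above 0 and a median of 0.15. All genes had 65.6% below 0 and a median of -0.06. At an unadjusted p under 0.05, 2 antioxidant genes were higher, where 0.346% of all genes were. Srxn1, sulfiredoxin, stood at 21.5, 26.8, 17 and 31.6 TPM in untreated and 71.7, 146, 25 and 37.6 TPM in treated muscle, a log2 fold change of 1.22 (limma unadjusted p = 0.0258). Txnrd1, thioredoxin reductase, stood at 72, 53.4, 49.2 and 61.2 TPM and 96.2, 161, 56.2 and 118 TPM, 0.78 on the log2 scale (limma unadjusted p = 0.0245). Treated 2 was the highest and treated 3 overlapped the untreated values for both. The list median lay between 0.08 and 0.21 when 1 library was left out. Glycolysis and glycogen genes had 22 of 32 above 0 (median 0.12), but 12 of 32 without melanoma 2 (median -0.04) and 16 of 32 with sample quality weights, and Hk2, hexokinase, was at 338 and 333 TPM in treated 1 and treated 2 and between 127 and 168 TPM in the other 6. Ribosomal protein genes had 46 of 48 below 0, where 65.6% of all genes were. Their median was -0.17 (0.02 without melanoma 2), with 0 at an unadjusted p under 0.05.

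**Figure D4:**
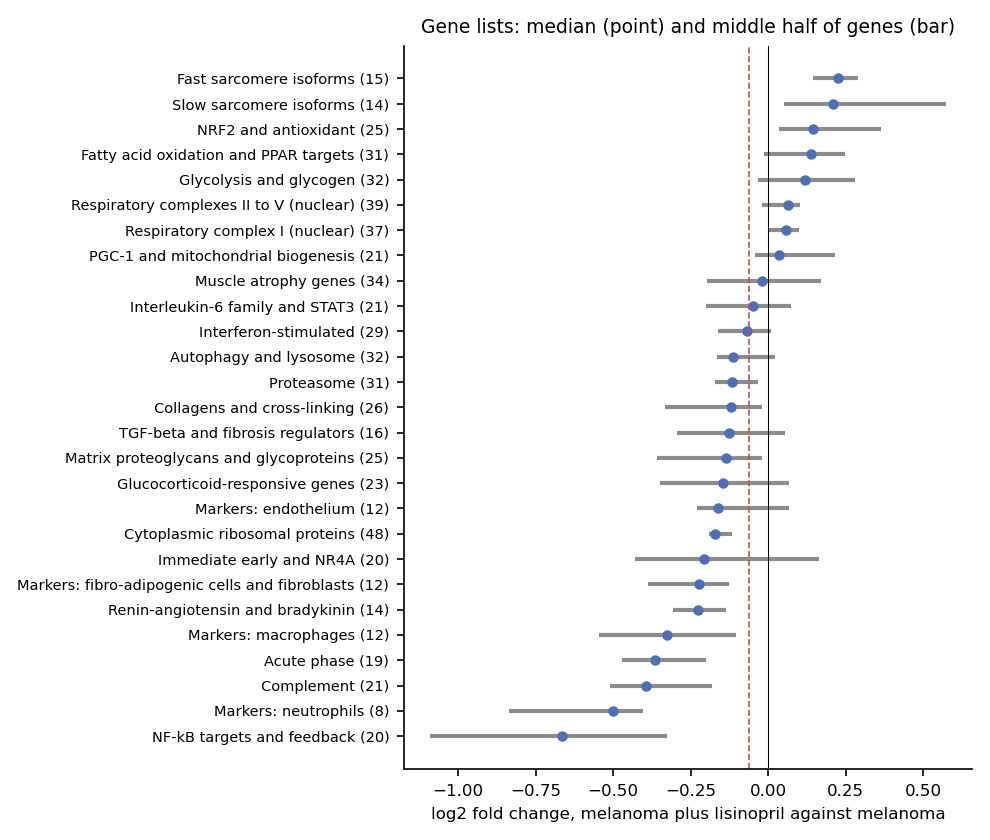
For each of 27 gene lists (number of kept genes in brackets), the point is the median log2 fold change, treated against untreated, and the bar runs from the lower to the upper quartile of its genes; the dashed line is the median of all genes (-0.06). NF-kB targets lie lowest at -0.67 and fast sarcomere isoforms highest at 0.22.

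**Figure D5:**
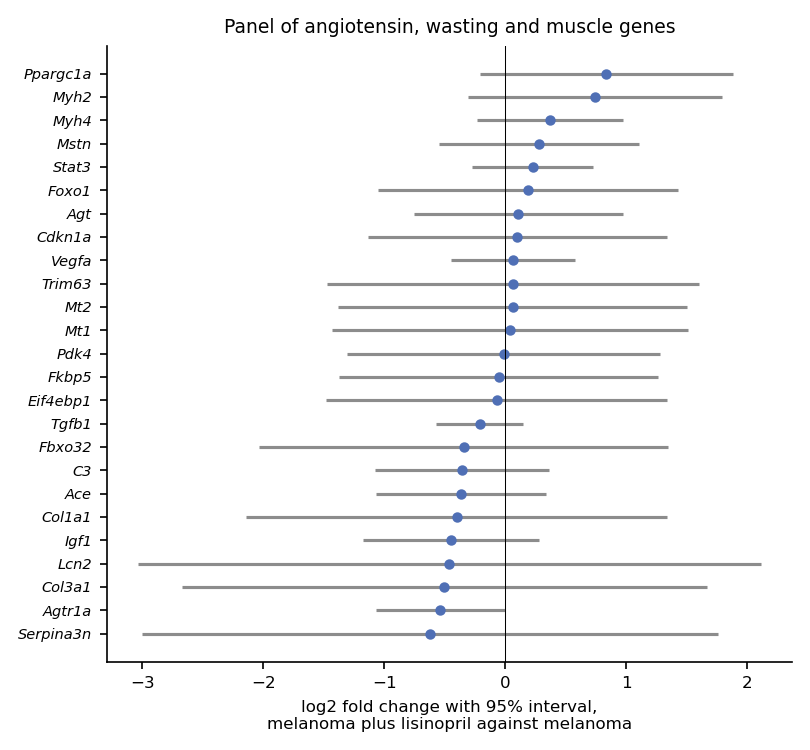
Log2 fold change (point) and 95% interval from limma (line) of the 25 genes of the angiotensin, wasting and muscle panel that passed the filter, treated against untreated. Every interval except that of Agtr1a (-1.07 to -0.01) includes 0, and those of Serpina3n (-3.0 to 1.76) and Lcn2 (-3.04 to 2.11) are the widest of the 25.

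Whether lisinopril differed in its effect between tumour-bearing and tumour-free muscle was tested as an interaction over all 15 libraries, in 11923 genes. With limma 0 genes (0%) passed, 151 (1.27%) had an unadjusted p under 0.05, and the lowest adjusted p was 0.9997. The median interval reached 0.64 log2 units to each side, wider than for the main comparison. Zdhhc23 had the smallest p: lisinopril alone was at 0.456 to 0.904 TPM against 1.15 to 4.00 TPM in controls, and treated tumour-bearing muscle was at 4.81 to 10.4 TPM against 2.05 to 3.90 TPM, an interaction of 1.92 ± 0.40 (SE, limma unadjusted p = 0.000232). For the genes described above the interaction was 1.81 for Nr4a3 (limma unadjusted p = 0.00908), -1.65 for Tnf (limma unadjusted p = 0.00824) and -0.60 for Nfkbia (limma unadjusted p = 0.101), none of which passed after adjustment. Nothing here was shown to be particular to tumour-bearing muscle.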

How the data were processed

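Polyadenylated RNA of tibialis anterior, extracted with Trizol, was made into libraries with the TruSeq stranded mRNA kit and sequenced on an Illumina NovaSeq instrument, per the labels' protocols. The authors deposited 1 table of TPM, built on mm10 per the submitters' processing notes, in which each column sums to 1000000. The sources used here do not give the aligner, counting program and annotation. The extraction protocol in the labels speaks of 3 weeks after LLC cells, another tumour model, which conflicts with day 49 of the melanoma, so the day given here rests on the design text alone.

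Groups came from the labels' treatment. The 8 tumour-bearing libraries were fitted with limma 3.58.1 in R 4.3.3 on log2(TPM + 1) with 2 group means and eBayes with trend, after the filter of 1 TPM in 3 libraries. The interaction used all 15 libraries. Tests were two-sided, and p-values were adjusted by Benjamini-Hochberg over all kept genes with a threshold of 0.05. Errors of log2 fold changes are limma standard errors, and errors of TPM are standard deviations. A count model was not run because TPM are not counts. The script was tested on simulated data.

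Named genes were, in each direction, the 12 with the smallest unadjusted p among genes with separated groups and 5 TPM or more on average in the group that was higher, a panel of 28 genes, and up to 3 members with the smallest p of each list. Some of the genes this rule takes are not reported here. Sele, Selp, Tnfaip3, Birc3, Cxcl1, Gm7334, the NF-kB subunits and the marker and edge genes lie outside this rule. The rule's genes were chosen by p on these values, so their separation is no further evidence. The comparison, the 61 gene lists and the panel were chosen with earlier results of these data known. Positions came from GENCODE for mm10, where 45134 symbols (94.7%) matched. Results were also computed with a pseudocount of 0.1, without the filter, with a mean of at least 5 TPM, with 2 rescalings (median ratio and quantile), with TPM without the mitochondrial genome, with 3 other variance settings (no trend, robust, and weights for library quality), with a block for the replicate number, over all 15 libraries, and with each library left out. The sum of Btg3 and Gm7334 was added after seeing the data. Python 3.11.15 drew the figures with matplotlib 3.10.9.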

Additional observations from a re-analysis of the deposited data

Results flagged for a closer look

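Among 172 groups of 4 libraries (the 85 named genes and the mitochondrial share in each tumour-bearing group), 12 had a highest or lowest value whose gap to the next exceeded Dixon's 95% critical value, or 6.98%, where chance flags about 1 in 20 groups. Melanoma 2 was the library in 6 of the 12. It was highest for the ubiquitin ligases Trim63 (1974 TPM) and Fbxo32 (986 TPM) and for Ppargc1a (34.0 TPM). It was lowest for Gbp10 (0.221 TPM), Pccb (19.3 TPM) and 9330159F19Rik (3.85 TPM). The latter was also highest in treated 2 (18.7 TPM). The pair of ligases rests on this library in untreated muscle: without it the log2 fold changes were 0.65 for Trim63 and 0.24 for Fbxo32, neither past the limma threshold. Btg3 was highest in treated 1 at 2.72 TPM, the single treated library not listed at 0. Treated 3 was lowest for C7 (0.620 TPM) and highest for Fndc5, the irisin precursor (54.1 TPM). Melanoma 1 was lowest for Angptl4 (0.597 TPM) and melanoma 4 highest for the slow light chain Myl2 (16.3 TPM).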

How the results depend on the processing

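The count of 0 calls held under every alternative of the limma fit except without melanoma 3 and without treated 1, with 0 to 1 calls when a library was left out. The count at an unadjusted p under 0.05, 181 genes, was 493 with no filter, 82 with a mean of at least 5 TPM and 653 with sample quality weights, which gave melanoma 2 a weight of 0.251, and 85 to 324 without 1 library. For the interaction, 151 genes became 400 unfiltered, 78 at a mean of at least 5 TPM, 481 with weights and 233 with the replicate block, and 78 to 421 without 1 library, with 0 calls throughout. The causes were not tested.

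Same-numbered libraries did not pair: their deviations from the group means correlated at -0.11, -0.13, 0.36 and -0.15. With the replicate block the main comparison had 0 calls and 198 genes at an unadjusted p under 0.05, and the mitochondrial share differed by -0.434 points with an exact p of 1. That share difference ranged from -2.50 to 3.02 without 1 library, turning positive without melanoma 4 (2.10) and without treated 4 (3.02).

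Of 85 named genes 69 never changed sign over 19 alternatives. Genes outside the panel were named for separated groups, a small p or values already seen, which makes a change of sign unlikely. That count is therefore no measure of stability, and every gene that turned belonged to the panel, named whatever its result. Signs turned for Trim63 with quantile normalization (-0.037), for Fkbp5 and Pdk4 with median-ratio rescaling (0.0089 and 0.051), and for Eif4ebp1 (0.15), Mstn (-0.074), Fkbp5 (0.30) and Pdk4 (0.040) with sample quality weights. Without 1 library the log2 fold changes that turned ranged from -0.14 to 0.38 for Agt, -0.39 to 0.65 for Trim63, -0.93 to 0.25 for Fbxo32, -0.45 to 0.50 for Eif4ebp1, -0.17 to 0.57 for Foxo1, -0.044 to 0.47 for Mstn, -0.38 to 0.46 for Fkbp5 and -1.39 to 0.25 for Serpina3n. They ranged from -1.10 to 0.47 for Lcn2, -0.34 to 0.67 for Mt1, -0.33 to 0.65 for Mt2, -1.15 to 0.12 for Col1a1, -1.32 to 0.16 for Col3a1, -0.58 to 0.34 for Pdk4, -0.32 to 0.57 for Cdkn1a and -0.060 to 0.23 for Vegfa. Depth is unknown, so its part in the precision was not tested.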
